A study of Mus musculus with 30 samples.

Results

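CBE12mut and CBE1mut pro-B cells both lack CBE1 and differ by CBE2, so setting one against the other shows what CBE2 still contributes to heavy-chain V(D)J joining once CBE1 is mutated. Members were taken by library title, and 6 of the 30 libraries of the series qualified: 3 of CBE12mut and 3 of CBE1mut. All 6 came from bone marrow pro-B cells of 129SV mice that were sorted as B220+ IgM- CD43+. The CBE12mut libraries carry the genotype label CBE1&2-/- and the CBE1mut libraries the label CBE1-/-, and the other 12 bone marrow libraries (WT, CBE1inv, CBE2mut and CBE2inv, 3 each) served to estimate the spread. The method was HTGTS-V(D)J-seq, in which genomic DNA is amplified outward from a primer at JH4 and the sequence joined to it is read. The labels do not say whether the 3 libraries of a genotype came from separate mice, so p-values measure the spread between these libraries, which may be technical. The libraries are genomic DNA, so the sorted cell type was not checked against marker genes here.

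Heavy-chain assembly is ordered: RAG first joins a D segment to a JH segment, and then joins a V segment to that DJH. Each segment is flanked by a recombination signal sequence (RSS), a heptamer and a nonamer separated by a spacer of 12 or 23 bases, and RAG pairs signals of unequal spacer length. IGCR1, the intergenic control region between the V and D segments, holds CBE1 and CBE2, a pair of CTCF-binding elements. CTCF bound at such elements stalls cohesin-driven chromatin loop extrusion, and IGCR1 is known for keeping the V segments next to the D array from joining prematurely.

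The segments on which the comparison turns are shown first, since they sit on both sides of IGCR1. Letters for V segments are their coding end with the adjoining RSS, and those for D segments are the whole D with its downstream RSS, 5′ to 3′ on the coding (minus) strand of mm9, with heptamer and nonamer in capitals. They are C57BL/6 sequence found by matching the reads to mm9, while the mice were 129SV. Ighv5-1 (mm9 chr12:114811099-114811157), a pseudogene, is the V segment nearest to D. Ighv5-2 (VH81X, chr12:114816676-114816734) is the functional V segment nearest to D, and Ighv2-2 (chr12:114826439-114826497) and Ighv5-4 (chr12:114835618-114835676) follow it.
Ighv5-1: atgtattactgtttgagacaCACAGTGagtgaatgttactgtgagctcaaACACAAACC
Ighv5-2: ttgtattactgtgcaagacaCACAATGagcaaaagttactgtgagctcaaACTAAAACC
Ighv2-2: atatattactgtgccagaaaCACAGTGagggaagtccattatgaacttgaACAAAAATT
Ighv5-4: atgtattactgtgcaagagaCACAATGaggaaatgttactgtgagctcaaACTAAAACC
Ighv5-2 and Ighv5-4 share 1 heptamer and 1 nonamer, and the heptamer matched CACAGTG at 6 of 7 bases in both and at 7 of 7 in Ighv5-1 and Ighv2-2.

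Ighd4-1 (DQ52, chr12:114668711-114668749) is the D segment nearest to JH. Ighd1-1 (DFL16.1, chr12:114720353-114720403) is the farthest from JH in the main D array and so the nearest to IGCR1. A further D lies alone between the array and the V segments. It could not be named at the identity required, its closest match was Ighd3-1 (97.49% identity, chr12:114763496-114763540 in mm9), and it is called the Ighd3-1-like D here.
Ighd4-1: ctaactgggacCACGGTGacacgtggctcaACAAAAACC
Ighd1-1: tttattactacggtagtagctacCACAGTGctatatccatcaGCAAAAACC
Ighd3-1: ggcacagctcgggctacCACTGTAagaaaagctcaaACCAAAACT
Of these, Ighd1-1 has the full CACAGTG heptamer, and the heptamer at Ighd3-1 matched it at 5 of 7 bases.

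Positions below refer to the alignment target of the deposited files, in which a 129 Igh sequence replaces the mm9 locus, and are not mm9 positions. A junction was given to a segment when it lay within it or within 100 bp of it, and a level is the number of such junctions per 100000 junctions of the library. In all, 146 V and 26 D segments carried joins. The 6 libraries held 468962 junctions, 70611 to 97033 each, of which 97.4% to 97.9% were V or D joins.

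With CBE2 lost on top of CBE1, V joins made up a larger share of V plus D joins. Of V plus D joins, the V share was 87.7%, 87.8% and 84.7% in the 3 CBE12mut libraries and 71.6%, 73.5% and 72.6% in the 3 CBE1mut libraries. The groups did not overlap, and the difference was 14.1 percentage points (86.7% ± 1.75 against 72.6% ± 0.954, SD, n = 3 each; exact two-sided permutation p = 0.1, the smallest that 3 against 3 libraries allow). WT libraries were at 34.4% on the same measure. D joins, which mark DJH rearrangements, numbered 8921, 8432 and 14491 in CBE12mut and 20122, 19842 and 20749 in CBE1mut.

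By zone of the locus, only 1 of the 3 V parts of equal length rose, the one nearest to D. It rose (log2 0.35) from 63859 ± 1477 to 81467 ± 1949 junctions per 100000, while the middle part fell by 1.03 and the far part by 1.09 on the log2 scale (limma on log2(level + 1), adjusted p = 0.00165, 0.00112 and 0.00436, against a threshold of 0.05). Of the 10 zones, 1 rose (10% of those tested) and 4 fell (40%). The D zones fell unequally. The first D, Ighd4-1, changed by −0.15 (adjusted p = 0.31) and did not pass, the middle D fell by 0.86, and the last D, Ighd1-1, fell by 4.24 (adjusted p = 5.1e-05 and 3.46e-12). Each level is a share of its library, so a rise of one segment and a fall of the others cannot be told apart on this scale alone.

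Ighd1-1 showed the largest change of any segment tested. It held 277, 268 and 391 junctions per 100000 in CBE12mut against 5980, 5755 and 5697 in CBE1mut, so that every CBE12mut library was far below every CBE1mut library. The level fell 18.6-fold (log2 −4.21, SE 0.20, limma voom adjusted p = 8.75e-23). Among D joins only, its share was 2.30%, 2.24% and 2.62% in CBE12mut and 21.6%, 22.3% and 21.4% in CBE1mut. The fall of this share (log2 −3.17, adjusted p = 2.57e-25) is measured within D joins only. In WT, 22.1% of D joins were Ighd1-1, close to the CBE1mut value.

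The Ighd3-1-like D (chromosome 12, 114784064 to 114784080) on the far side of Ighd1-1 moved the other way. It held 309, 224 and 492 junctions per 100000 in CBE12mut and 114, 87.2 and 57.9 in CBE1mut, with no overlap. The level rose 4.01-fold (log2 2.00, SE 0.34, adjusted p = 1.11e-05), and the share of D joins rose 8.35-fold, from 0.322% ± 0.0987 to 2.58% ± 0.709 (log2 3.06, adjusted p = 3.13e-12). CBE12mut replicate 3 was the highest of the 3. In WT it held 3.77 ± 6.53 junctions per 100000.

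**Figure D1:**
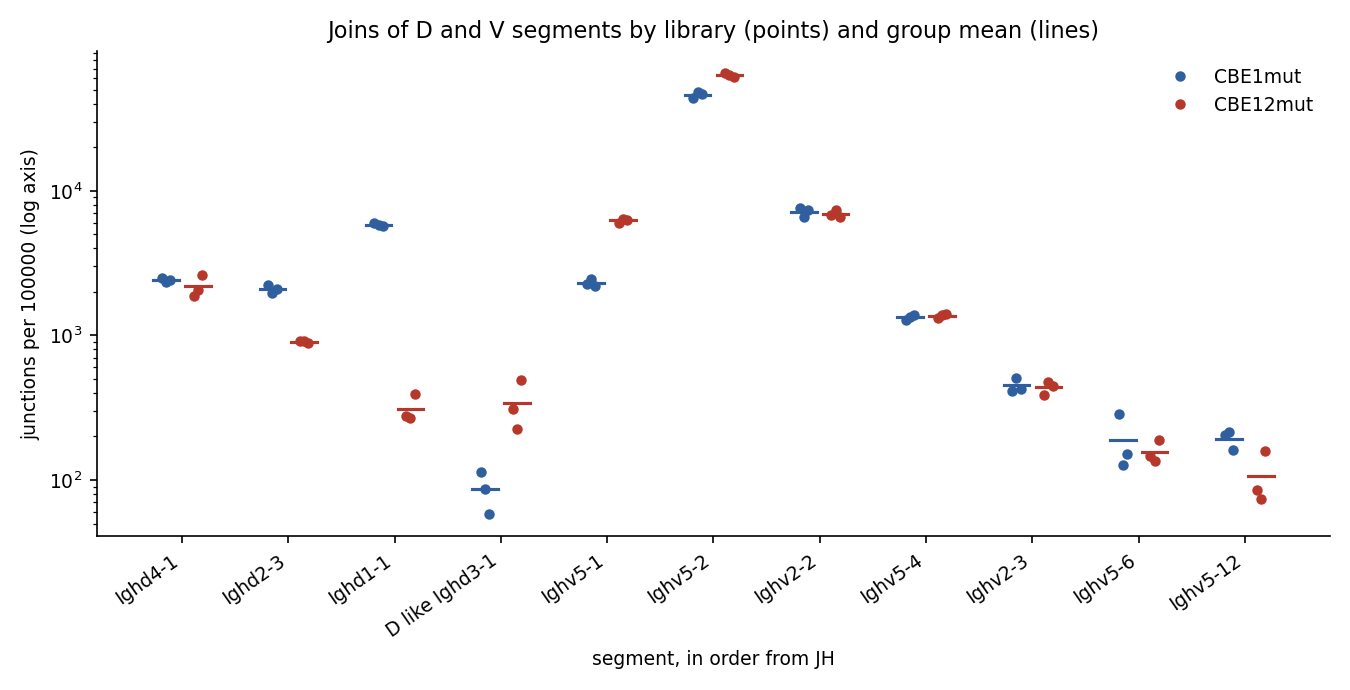
Junctions per 100000 (log axis) of 11 segments in order from JH, with 1 point per library and a line at the group mean of 3 libraries. Ighd1-1 lies far lower in CBE12mut, the Ighd3-1-like D, Ighv5-1 and Ighv5-2 lie higher in every CBE12mut library, and the points of Ighv2-2, Ighv5-4, Ighv2-3 and Ighv5-6 overlap.

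The V segments nearest to D differed in how they changed. Ighv5-1, 96.3 kb beyond Ighd1-1, held 5965, 6401 and 6322 junctions per 100000 in CBE12mut and 2257, 2463 and 2182 in CBE1mut. It rose 2.71-fold (log2 1.44, SE 0.10, adjusted p = 1.25e-15). Ighv5-2, 102 kb beyond Ighd1-1, held 65392, 62898 and 61408 against 43919, 48106 and 46659. It rose 1.37-fold (log2 0.45, SE 0.07, adjusted p = 8.08e-07). These were the only V segments that rose, and in both the 2 groups did not overlap.

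The next 4 V segments did not pass the test. Ighv2-2 held 6784, 7361 and 6594 against 7553, 6540 and 7405 junctions per 100000 (log2 −0.06, 95% confidence interval −0.21 to 0.10, adjusted p = 0.541). Ighv5-4 held 1310, 1378 and 1401 against 1277, 1338 and 1389 (0.03, interval −0.25 to 0.31, adjusted p = 0.848). Both intervals leave out the rise of Ighv5-2 and the median change of all segments. Ighv2-3 (−0.04, interval −0.44 to 0.36) and Ighv5-6 (−0.17, interval −0.76 to 0.43) also overlapped between groups. Beyond them, Ighv5-9 fell by 1.18 (adjusted p = 0.0396) from 54.3 ± 19.5 to 25.6 ± 14.6, with overlapping libraries, and Ighv5-12 fell by 0.91 (adjusted p = 0.0145) from 194 ± 27.6 to 106 ± 46.8. The call on Ighv5-9 was lost without CBE12mut replicate 1 or 3 or CBE1mut replicate 2 or 3 (log2 −0.78, −1.21, −0.91 and −1.21), and that on Ighv5-12 without CBE12mut replicate 1 or 2 (−0.79 and −0.69).

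Of all 164 segments tested, 4 rose (2.44%) and 89 fell (54.3%), with a median log2 change of −0.94. The fourth riser, a D at 114703898 closest to Ighd5-7, was at 60.6 ± 5.61 against 30.4 ± 6.74 (log2 1.01, adjusted p = 0.0481), a call lost without any 1 of the 6 libraries (0.82 to 1.15). The falls depended on the scaling. Under median-of-ratios scaling, which sets the typical segment to no change, the median was −0.02, 11 segments rose and 1, Ighd1-1 (−3.28), fell. Ighv5-1 (2.40), Ighv5-2 (1.41) and the Ighd3-1-like D (2.89) rose under both scalings, while Ighv2-2 (0.91), Ighv5-4 (0.99) and Ighv2-3 (0.92) rose only relative to the typical segment. Among the 10 V segments closest to D the test called 2 rises and 2 falls (median −0.11). Of the 129 tested V segments beyond them, 0 rose and 75 fell (limma voom), with a median of −1.05.

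By family, the median was −0.82 in the Ighv5 family (2 rose and 11 fell of 19 tested), −1.11 in the Ighv2 family (0 and 9 of 16), −0.96 in the Ighv1 family (0 and 27 of 60), −1.04 in the Ighv8 family (0 and 5 of 7) and −1.19 in the other V families (0 and 25 of 37). By part it was −1.04, −0.99 and −1.10 in the near, middle and far part, in which 34 of 52, 27 of 53 and 16 of 34 segments fell. Over all V segments 77 of 139 tested fell and 2 rose (median −1.03), and over all segments 54.3% fell. The counts by family and part are a description only, and differences between them were not tested. Of 4 tested V pseudogenes that could be named, 1 rose (Ighv5-1) and 2 fell. Ighv1-66, in the far part, fell by 2.74 from 26.4 ± 4.29 to 4.31 ± 3.73 junctions per 100000 (adjusted p = 0.00703), and Ighv4-1, in the near part, fell by 1.60 from 284 ± 43.6 to 98.05 ± 35.3 (adjusted p = 5.03e-05). The V segment farthest from D that carried joins, at 117638092, changed by −0.87 and did not pass (adjusted p = 0.273).

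**Figure D2:**
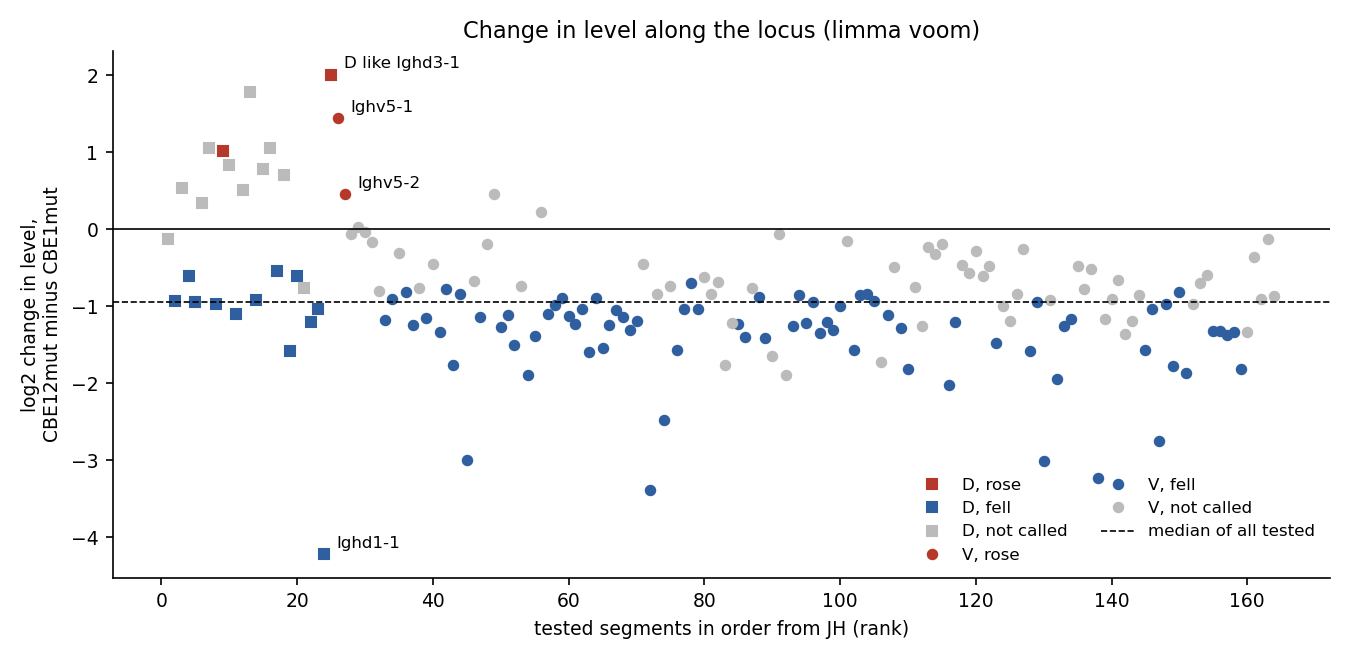
Log2 change in level (CBE12mut minus CBE1mut) of each of 164 tested segments against its rank from JH, with squares for D, circles for V, red for rose, blue for fell and grey for not called. Ighd1-1 stands lowest, the Ighd3-1-like D and Ighv5-1 highest among called segments, and most V segments lie around the dashed median of −0.94.

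Counting only V joins removes the change in the V share of V plus D joins. Ighv5-2 took 76.1%, 73.5% and 74.3% of V joins in CBE12mut and 62.8%, 67.0% and 66.0% in CBE1mut. The groups did not overlap, but the change missed the threshold (log2 0.19, SE 0.10, adjusted p = 0.0821); it passed when reads with the same junction were collapsed (0.26, adjusted p = 0.0181). Ighv5-1 took 6.95%, 7.48% and 7.65% against 3.23%, 3.43% and 3.09% and rose 2.27-fold (log2 1.18, adjusted p = 4.74e-17). Ighv2-2 took 8.16% ± 0.386 against 10.1% ± 0.898 and fell by 0.31 (adjusted p = 0.00945), a call lost without CBE1mut replicate 1 (−0.26, adjusted p = 0.0578). Of 139 V segments tested, 1 rose (0.719%) and 96 fell (69.1%), the median being −1.29. When the typical V segment was set to no change by median-of-ratios scaling, 5 rose and 0 fell (limma voom, median −0.05).

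Counting only D joins, the shares of the other D segments changed unequally as that of Ighd1-1 fell. These shares have a fixed sum, so the fall of Ighd1-1 by itself raises those of the other D segments. Ighd4-1 took 15.5%, 17.2% and 17.6% of D joins in CBE12mut and 8.95%, 8.996% and 8.98% in CBE1mut. This 1.88-fold rise (log2 0.91, SE 0.08, adjusted p = 1.39e-15) contrasts with its level per 100000, which did not pass (2183 ± 397 against 2399 ± 76.7, log2 −0.13, adjusted p = 0.385). Of the 25 D segments tested, 9 rose (36%) and 2 fell (8%), the median being 0.49. The split was 5 up and 4 down with median-of-ratios scaling.

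The 8 segments of the Ighd2 (DSP2) family, which make up the middle of the array, all fell in level (median −0.94, near the median of all segments). Within D joins 3 of the 8 rose and 0 fell (limma voom, median 0.11). This is near the share over all 25 D segments tested, of which 9 rose (36%, median 0.49). Ighd2-3, the member nearest to Ighd1-1, did not pass within D joins (log2 −0.24, adjusted p = 0.0613), and its share was 7.06% ± 0.979 against 7.82% ± 0.252. It passed when reads with the same junction were collapsed (−0.24, adjusted p = 0.0103), without CBE12mut replicate 2 (−0.26, adjusted p = 0.0494) or CBE1mut replicate 2 (−0.27, adjusted p = 0.0451), and under median-of-ratios scaling (−0.55, adjusted p = 7.19e-05). Beside Ighd1-1, the D at 114719358 was the other one whose share fell (log2 −0.56, adjusted p = 0.000981), from 7.03% ± 0.585 to 4.85% ± 0.867. It was singled out after its values were seen, and its closest named D was also Ighd1-1, at 76.19% identity. As read in the junctions, on the coding strand, these 3 D segments were the following, with no RSS shown.
Ighd2-3: tctatgatggttactac
D at 114719358: ttcattactacggctac
Ighd1-1: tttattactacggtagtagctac
Segments of the Ighd5 and Ighd6 families between the Ighd2 members were rare, each under 1.1% of D joins in every library. Within D joins 4 of 12 rose, near the 36% of all D segments tested, with a median of 1.71.

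**Figure D3:**
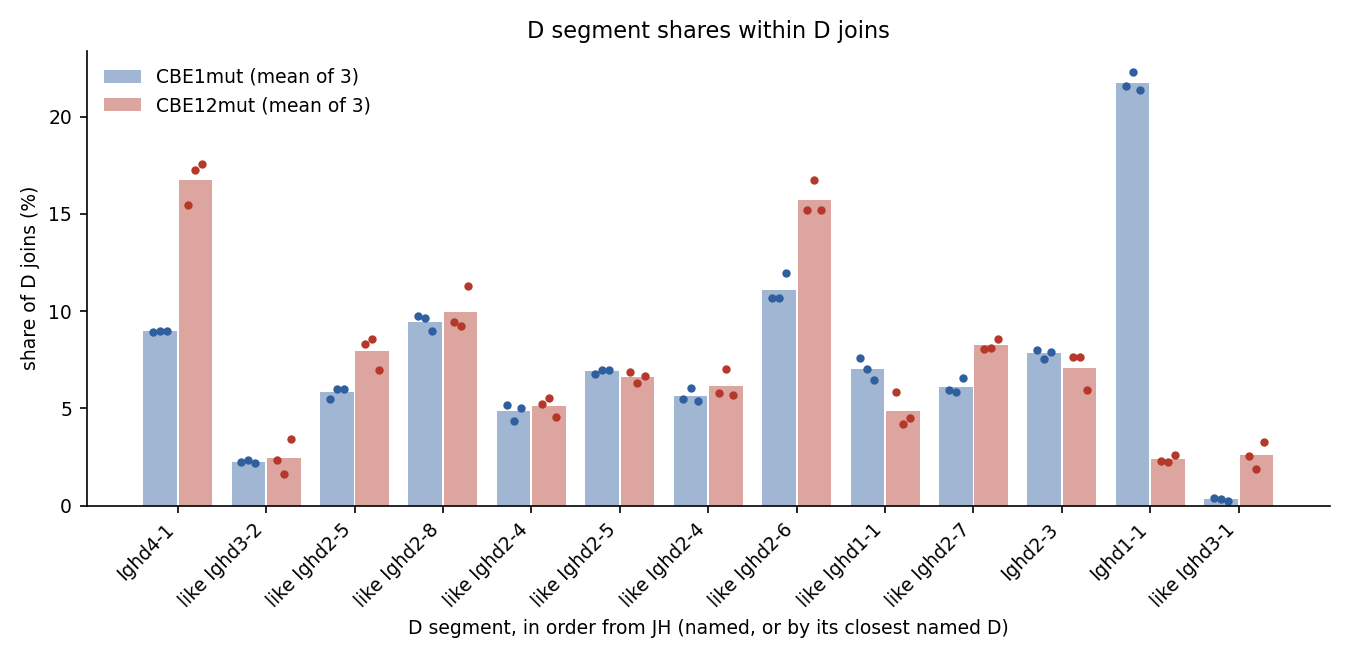
Share of D joins (%) for the 13 D segments that reached 1% in a group, in order from JH, as bars for the mean of 3 libraries and points for each library. Ighd1-1 drops from 21.7% to 2.38% while Ighd4-1 rises from 8.97% to 16.8%.

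The D segment that remains inside a V join records which DJH was used. A run of at least 8 bases that matched 1 D was found in 48.8% to 49.9% of CBE12mut V joins and in 53.8% to 54.0% of CBE1mut V joins. Ighd1-1, at 23 bases, is longer than the others and so more readable, and how much this added to the difference was not tested. Of V joins with a readable D, 3.62%, 3.61% and 3.57% held Ighd1-1 in CBE12mut and 16.4%, 16.9% and 16.4% in CBE1mut. The 2 groups did not overlap, and the difference of −12.9 percentage points was many times the spread within either (SD 0.0243 and 0.272; exact permutation p = 0.1). Ighd4-1 was at 4.58% ± 0.404 against 2.88% ± 0.355, the Ighd2 family at 80.3% ± 0.233 against 70.2% ± 0.356, and the Ighd3-1-like D at 0.667% ± 0.0366 against 0.255% ± 0.0475, each with no overlap (exact permutation p = 0.1). Shares of readable D also have a fixed sum, so the fall of Ighd1-1 by itself raises those of the other D segments. How much this added to the higher shares was not tested. Unlike in D joins, Ighd2-3 inside V joins was lower in every CBE12mut library, at 7.87% ± 0.524 against 10.4% ± 0.487.

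The share of Ighd1-1 inside V joins also varied with the V that was joined, a difference between V classes that was not tested. In CBE1mut, Ighd1-1 made up 9.02% ± 0.998 of readable D in Ighv5-1 joins, 12.3% ± 0.9897 in Ighv5-2 joins, 14.2% ± 2.85 in Ighv2-2 joins and 18.8% ± 4.41 in Ighv5-4 joins. It made up 32.02% ± 3.39 in joins of the near V part other than the 4 segments closest to D, 32.2% ± 2.74 in the middle part and 33.9% ± 1.56 in the far part. In CBE12mut the same classes held 3.28% ± 0.204, 3.34% ± 0.148, 3.77% ± 0.0567, 4.14% ± 2.31, 5.30% ± 0.996, 7.14% ± 3.68 and 7.34% ± 1.34. Ighd1-1 was lower in CBE12mut in every class, with no overlap between groups (exact permutation p = 0.1 for each; 21 such tests over 7 V classes and 3 D groups, adjusted p 0.111 to 0.3). Ighd4-1 in far V joins was at 11.2% ± 3.39 in CBE12mut and 6.29% ± 0.530 in CBE1mut. In Ighv5-1 joins the Ighd2 family was at 77.4% ± 0.878 against 78.9% ± 0.939 and overlapped between groups (exact permutation p = 0.2). In every other V class the Ighd2 family was higher in each CBE12mut library. The far part gave 969 readable joins in CBE12mut and 2580 in CBE1mut, fewer than the 76136 and 55987 of Ighv5-2.

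Joins that fell between the array and the V segments were more frequent in CBE12mut and lay elsewhere. They numbered 424, 383 and 675 in CBE12mut and 269, 214 and 245 in CBE1mut, or 572, 542 and 696 against 370, 279 and 315 per 100000 junctions (exact permutation p = 0.1). The zone test did not pass (log2 0.91, adjusted p = 0.072). Within 5 kb of Ighd1-1 lay 4.01%, 4.44% and 0.593% of them in CBE12mut but 52.0%, 41.1% and 56.7% in CBE1mut. The Ighd3-1-like D held 54.0%, 41.3% and 70.7% against 30.9%, 31.3% and 18.4%. Without that D, joins beyond 5 kb were at 240, 295 and 200 per 100000 in CBE12mut and 63.3, 76.8 and 78.5 in CBE1mut, a ratio of 3.36 with no overlap (exact permutation p = 0.1). WT libraries averaged 5.74.

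These joins gathered at 9 places with at least 30 joins in the 6 libraries, 1 of them the Ighd3-1-like D. Of the 9, 5 were higher and 2 lower in CBE12mut with no overlap (exact permutation p = 0.1 each; over the 9 tests, adjusted p 0.129 to 1). The places were picked by their joins in the same 6 libraries, so a place could qualify through the group where it was high. The count of places without overlap is thus a description only. The one 3.18 kb beyond Ighd1-1 held 0, 0 and 0 joins in CBE12mut and 65, 45 and 75 in CBE1mut, which is at least 65.7-fold lower if 3 joins over the CBE12mut libraries are taken as the floor. The one 21.1 kb beyond Ighd1-1 held 43, 53 and 55 joins against 3, 18 and 10. The one 50.3 kb beyond Ighd1-1 held 32, 52 and 47 against 2, 0 and 14. The one 35.3 kb beyond Ighd1-1 held 18, 16 and 5 against 18, 11 and 5 and overlapped between groups (exact permutation p = 1).

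At 8 of the 9 places the reads could be placed in mm9, and at 5 of these the 3 bases next to the join, on the coding strand and where a D would have its heptamer, were CAC, the first bases of the heptamer. One of them is the Ighd3-1-like D with its own RSS, and without it the count was 4 of 7. The same 3 letters follow 1.59% of all positions of the 90.8 kb between Ighd1-1 and Ighv5-1 in mm9. The search covered this 1 strand and orientation, and a match is a description of letters only. The places 3.18, 21.1, 35.3 and 49.0 kb beyond Ighd1-1 (mm9 chr12:114723516-114723563, chr12:114741451-114741498, chr12:114755650-114755697 and chr12:114762971-114763018) read as follows, with the 7 bases beyond the join in capitals.
3.18 kb: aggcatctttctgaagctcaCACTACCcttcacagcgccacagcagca
21.1 kb: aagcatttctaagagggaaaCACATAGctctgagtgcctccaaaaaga
35.3 kb: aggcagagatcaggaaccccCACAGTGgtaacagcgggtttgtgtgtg
49.0 kb: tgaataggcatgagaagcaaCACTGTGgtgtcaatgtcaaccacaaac
Of these, the place with the full CACAGTG, 35.3 kb beyond Ighd1-1, is the one whose groups overlapped.

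**Figure D4:**
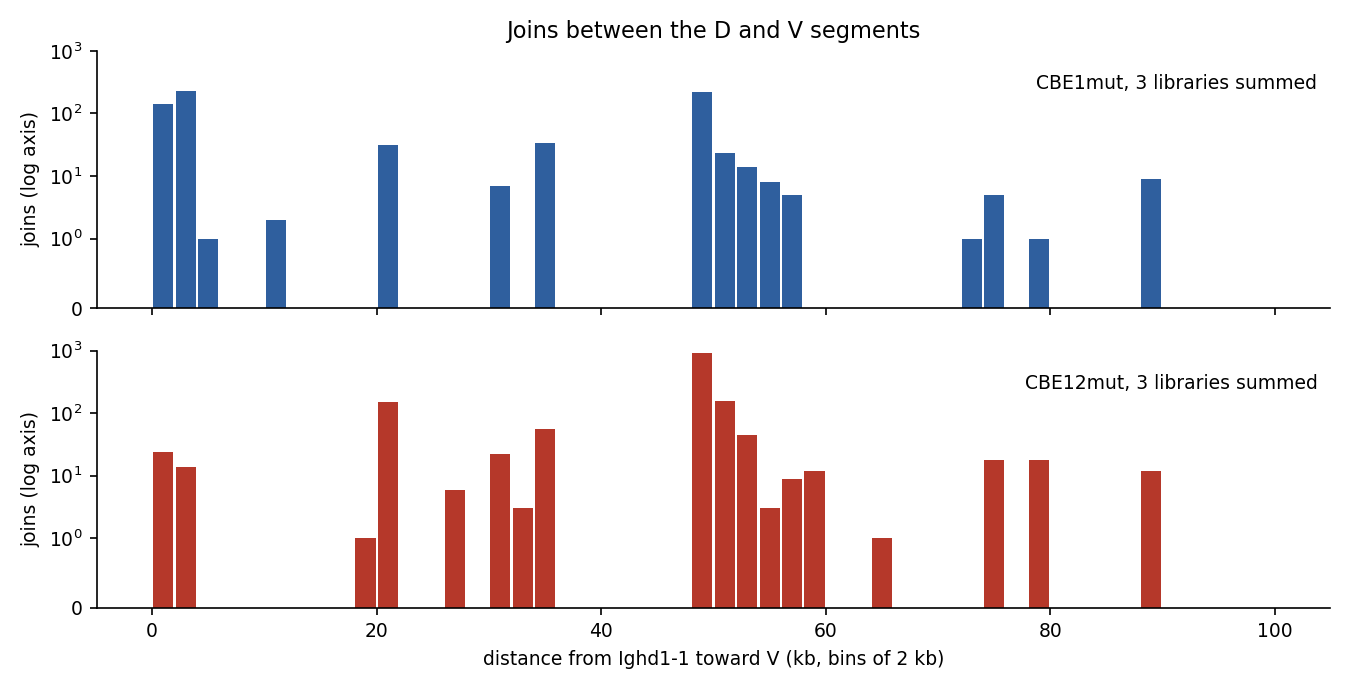
Joins per 2 kb bin (log axis, 3 libraries summed) against the distance from Ighd1-1 toward the V segments, CBE1mut above and CBE12mut below. The bins next to Ighd1-1 are high in CBE1mut and low in CBE12mut, and the bins around 21.1 kb and 50.3 kb are higher in CBE12mut.

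The reading frame was read from the V cysteine to the JH4 tryptophan. V joins were in frame at 28.4%, 29.7% and 30.4% in CBE12mut and at 36.8%, 33.9% and 32.8% in CBE1mut, a difference of −4.96 percentage points with no overlap (exact permutation p = 0.1). In-frame joins without a stop codon were at 20.9% ± 0.906 and 26.4% ± 1.89 of V joins (exact permutation p = 0.1). The difference varied with the V segment, and the pooled share also depends on which V segments were joined. Of V joins, Ighv5-2 made up 74.6% ± 1.36 in CBE12mut and 65.3% ± 2.19 in CBE1mut. How much this shift added to the pooled difference was not tested. Ighv5-2 joins were in frame at 26.2% ± 0.677 and 26.4% ± 0.902 (exact permutation p = 0.5), and joins of V segments other than Ighv5-1, Ighv5-2, Ighv2-2 and Ighv5-4 at 64.3% ± 1.53 and 66.3% ± 3.51 (exact permutation p = 0.5). Ighv2-2 joins, at 22.2% ± 2.21 and 25.0% ± 2.88, also overlapped between groups (exact permutation p = 0.3). Ighv5-4 joins were in frame less often in CBE12mut, at 27.1%, 25.0% and 31.3% against 31.9%, 34.8% and 37.8% (exact permutation p = 0.1). Ighv5-1 joins were so slightly more often, at 32.4% ± 0.902 against 30.5% ± 1.90 (exact permutation p = 0.1). In-frame shares without a stop codon were not tested by V segment. They were lower in every CBE12mut library for Ighv2-2 (11.1% ± 0.986 against 16.1% ± 3.18) and Ighv5-4 (20.6% ± 2.42 against 24.8% ± 1.59). They overlapped for Ighv5-1 (25.1% ± 1.28 against 22.4% ± 3.95), Ighv5-2 and the other V segments.

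Other joins of the bait were rare, and their differences ran both ways. Junctions to other JH segments were at 1270, 1564 and 1475 per 100000 in CBE12mut and 1584, 1574 and 1750 in CBE1mut (exact permutation p = 0.1). The zone test of JH did not pass (log2 −0.19, limma adjusted p = 0.565). Of these junctions, 95.6% in CBE12mut and 95.7% in CBE1mut had the orientation opposite to deletional joining. Those of the opposite orientation, at 1374 ± 159 and 1565 ± 97.96 per 100000, overlapped between groups (exact permutation p = 0.3). Set against the smaller number of D joins, junctions to other JH segments in either orientation were 10.5, 13.1 and 9.88 per 100 D joins in CBE12mut and 5.72, 6.09 and 6.56 in CBE1mut (exact permutation p = 0.1). Inversional D joins were 0.617%, 0.522% and 0.511% of D joins (55, 44 and 74 joins) against 0.159%, 0.181% and 0.308% (32, 36 and 64 joins; exact permutation p = 0.1). Inversional V joins were at 0.628% ± 0.0860 and 0.533% ± 0.0311 of V joins and overlapped (exact permutation p = 0.2). Junctions downstream of JH, within 300 kb, were at 72.9, 50.98 and 63.9 per 100000 in CBE12mut and 16.5, 43.0 and 3.86 in CBE1mut, higher in every CBE12mut library. This zone did not pass (log2 2.02, limma adjusted p = 0.072). It passed without CBE1mut replicate 2 (2.77, adjusted p = 0.0299), with a pseudocount of 5 (1.68, adjusted p = 0.035) and with reads collapsed but the read end kept (2.66, adjusted p = 0.0306), and was at 1.18 (adjusted p = 0.32) without CBE1mut replicate 3.

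Of the measures of the junction itself, the number of inserted bases differed between groups. D joins with inserted bases carried 4.53, 4.55 and 4.53 bases on average in CBE12mut and 4.31, 4.39 and 4.32 in CBE1mut, a difference of 0.200 bases with no overlap (exact permutation p = 0.1). The share of D joins with inserted bases was 88.9% ± 0.779 and 88.4% ± 0.513 (exact permutation p = 0.4), and the share in which both ends overlapped was 5.74% ± 0.576 and 5.91% ± 0.245 (exact permutation p = 0.8). Both turned when reads with the same junction were collapsed, to differences of −1.22 and 0.856 percentage points with no overlap (exact permutation p = 0.1 each). Collapsing went by junction, strand, bait end and inserted bases, so separate molecules that share all of these were merged too. How much such merging added to the turn was not tested. Between V and JH4, where the remaining D is counted too, the mean was 16.67 bases in CBE12mut and 16.96 bases in CBE1mut (exact permutation p = 0.1). Over the 26 exact tests of single library values, those by V class and by place apart, adjusted p-values ran from 0.137 to 0.8.

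Loss of CBE2 was also set against the same loss in cells that keep CBE1, by testing whether the change from CBE1mut to CBE12mut differed from that from WT to CBE2mut. These 2 comparisons share no library. CBE2mut libraries came from another sequencing run than the other 3 groups, so for this test CBE2 genotype with CBE1 present and run cannot be told apart. The CBE2mut libraries held 31576, 11105 and 41433 junctions, and 35.9%, 19.5% and 43.9% of their read sequences repeated. Junctions to JH segments were at 7449 ± 2277 per 100000 in CBE2mut and 1936 ± 233 in WT. Ighd1-1 fell by 4.21 without CBE1 and by 1.18 with it, a difference of −3.03 (limma voom adjusted p = 3.93e-15), and −2.47 under median-of-ratios scaling. Ighv5-1 rose by 1.44 and by 1.66, and this difference did not pass. Ighv5-2 rose by 0.45 without CBE1 and by 1.45 with it. Ighv2-2 changed by −0.06 and rose by 1.37, and Ighv5-4 changed by 0.03 and rose by 1.22. The differences, of −0.99, −1.43 and −1.19 in this order, passed. Levels are shares of a library, and Ighv5-2 started at 46228 per 100000 in CBE1mut but at 3588 in WT. A rise of 1.45 from the CBE1mut level would exceed the whole library, so its downward difference is a description only. The V share of V plus D joins also started higher, at 72.6% in CBE1mut and 34.4% in WT. How much this limited the rises of other V segments was not tested. Of 164 segments 32 differed downward (19.5%) and 0 upward (46 had an unadjusted p under 0.05 in either direction), with a median of −0.55, but under median-of-ratios scaling only Ighd1-1 did. The 32 became 16 without CBE12mut replicate 1, 19 without CBE12mut replicate 2, and 20 without CBE1mut replicate 1 or CBE2mut replicate 1.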

How the data were processed

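The deposited files give no abundance value: per the file headers, a line describes a single read, with the junction of bait and prey, its positions and its sequence. Per the labels, reads were aligned to a 129 Igh sequence joined with mm9, with Bowtie2 (version not given in the sources used here, per the submitters' processing notes), and an enzyme blocking step was omitted. The deposited duplicate column is 0 on every line, although 9.26% to 19.3% of read sequences repeat in the 6 libraries. Repeats are not independent molecules, so they can inflate a level. All lines were counted, with reads collapsed as an alternative.

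Segments are clusters of at least 50 joins, named with BLAST 2.17.0 against mm9 at 97% (V) or 99% (D) identity, or 96% and 98% between named neighbours in the same order. By this 71 of 172 were named, and the rest are given by position. Where related V segments share sequence, the deposited alignment set the segment a read went to. Segments with at least 10 junctions in 3 libraries entered a voom fit (limma 3.58.1, R 4.3.3) over all 18 bone marrow libraries, with library junctions (or V or D joins) as size and Benjamini-Hochberg adjusted p-values. In the filter a segment could pass through any 3 of the 18 libraries. For single values, exact permutation tests (two-sided, 20 relabelings) were used. On simulated counts for this comparison with 154 segments tested, 90% of changes of log2 1 and 100% of log2 2 were recovered, and 1 of 114 unchanged segments was called. The simulated spread between libraries was a fixed value for all segments and was not estimated from these data. These rates therefore need not hold for the real libraries. No pair of libraries of a genotype agreed within sampling noise (chi-square over segments, p at most 7.44e-77). That test takes joins as independent, which repeated reads are not, so its p-values can overstate the departure from sampling noise. The 6 libraries shared 1 flow cell. Same-numbered libraries deviated with correlations of −0.139, 0.119 and 0.182, so the numbers were not taken to pair them.

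Named segments were every D with a name, 8 V segments near D (Ighv2-4, which lies among them, was not on the list), the Ighd3-1-like D, the V farthest from D, and up to 10 risers and 10 fallers with no overlap and a mean of at least 20 per 100000, from the level and within-V fits; not all are given. The libraries, lists, named segments and tests were chosen with earlier results of these data known. Alternatives were other scalings, filters, models, sets of libraries, windows, collapsed reads, a replicate block and leaving out each library. The v-Abl libraries were not analysed here.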

Additional observations from a re-analysis of the deposited data

Results flagged for a closer look

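The change from CBE1mut to CBE12mut differed from the change from WT to CBE2mut, by limma voom's test of the difference itself, for 11 of the named segments. The log2 difference was −3.22 for the V at 116652452, −3.03 for Ighd1-1, −2.65 for Ighv5-9, −2.07 for the V at 115294804, −1.86 for Ighv5-12, −1.43 for Ighv2-2, −1.19 for Ighv5-4, −1.01 for Ighv5-6, −0.99 for Ighv5-2, −0.90 for Ighv2-3 and −0.72 for Ighd2-3. Of all 164 segments tested, 32 differed (19.5%). Some named segments, among them the V at 116652452 and the V at 115294804, were picked as fallers from CBE1mut to CBE12mut. That change is part of the difference tested, so the count of 11 is a description only. For Ighv5-2 the level in CBE1mut left no room for the rise seen from WT to CBE2mut. CBE2mut libraries came from another run, so genotype and run cannot be told apart. Under median-of-ratios scaling the call held for Ighd1-1 (−2.47) alone. The call on Ighv2-3 was lost without CBE12mut replicate 1 (−0.83), as were those on the V at 115294804 (−1.58) and the V at 116652452 (−2.29, and −2.92 without CBE1mut replicate 2), and that on Ighv5-6 was lost without any 1 of 8 libraries, with values from −1.12 to −0.67. Groups of 3 libraries were not tested for outlying libraries.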

How the results depend on the processing

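For segment levels, 11 rises and 1 fall were called with median-of-ratios scaling and limma trend 2 rises, and leaving out 1 library gave 3 to 4 rises and 60 to 80 falls. For shares within V joins, 5 rises and 0 falls were called with median-of-ratios scaling (limma voom, median −0.05), and collapsed reads or the 6 libraries alone called 2 rises. For shares within D joins that scaling gave 5 rises and 4 falls. For zones, the rises numbered 2 with a pseudocount of 5 or with the replicate block, 3 with reads collapsed but the read end kept (an alternative chosen after seeing the data), and 1 to 2 without 1 library. For the difference between both CBE2 effects, median-of-ratios scaling called 1 segment, and leaving out 1 library 16 to 40.

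Under median-of-ratios scaling the direction of level changed for Ighd4-1 (0.81), Ighd6-2 (0.18), Ighv2-2 (0.91), Ighv2-3 (0.92), Ighv5-6 (0.78), Ighv5-12 (0.06) and the V at 117638092 (0.06), that within V joins for Ighv2-2 (0.93), Ighv5-4 (1.01), Ighv2-3 (0.94), Ighv5-6 (0.80), Ighv5-12 (0.09) and the V at 117638092 (0.08), and that within D joins for Ighd6-2 (−0.10) and Ighd6-1 (−0.31). This follows from its construction, which centres the typical segment. The level of Ighv2-3 turned without CBE12mut replicate 1 (0.04) or CBE1mut replicate 2 (0.05), and that of Ighv5-6 without CBE1mut replicate 1 (0.17, with a range of −0.40 to 0.17 without any 1 library). The D share of Ighd6-2 turned without CBE1mut replicate 2 (−0.12, range to 0.62), and that of Ighd6-1 with collapsed reads (−0.21), with the read end kept (−0.01), and without CBE12mut replicate 1 (−0.22) or CBE1mut replicate 1 (−0.03, range to 0.21); the cause was not tested.

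Collapsing reads turned the difference in D joins with overlapping ends to 0.856 percentage points and that in D joins with inserted bases to −1.22 points (exact permutation p = 0.1 each); the cause was not tested. The first also ran from −0.444 to 0.128 without 1 library. With the replicate number as a block the difference in V share was 14.1 points (exact sign-change p = 0.25, the smallest that 3 pairs allow). The replicate block called 3 rises and 90 falls in level. It ended that on the D at 114703898 (level 0.97), whose call was also lost without any 1 library. The 36 far V segments held a median of 29 joins over the 3 CBE12mut libraries (1 to 379), so the rarer ones are limited by depth.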
